A study of Drosophila melanogaster with 2 samples.

Results

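The unfolded protein response of the endoplasmic reticulum (ER) was described here through 9 fly genes: the stress sensors Ire1, PEK and Atf6, the transcription factors Xbp1 and crc, and the folding and translocation genes Hsc70-3, Gp93, Pdi and Sec61alpha. They were taken by name, out of 13968 protein-coding genes, and all 9 symbols were found in the annotation. The data came from chromatin immunoprecipitation with sequencing (ChIP-seq) of whole Drosophila melanogaster embryos, 0 to 16 hours old, of mixed sex. Every embryo belonged to a transgenic Usf-GFP line in which Usf, a basic helix-loop-helix leucine zipper factor, carries a green fluorescent protein at its C terminus, and the pulldown used an antibody against that tag. There was 1 group with 2 biological replicates, numbered 3 and 4, and the labels name no treatment, no ER stress and no promoter that drives the fusion. Each replicate had a relaxed peak list, and the pooled reads had another. A smaller set was thresholded by the irreproducible discovery rate (IDR), a measure of reproducibility between replicates. Its peaks were the strongest of the pooled list, so a place in it does not show that a single summit recurred in both replicates.

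The ER folds secreted and membrane proteins, and unfolded proteins in its lumen set off a signalling response. Ire1 is a transmembrane kinase and nuclease that splices the Xbp1 mRNA, which then encodes an active transcription factor. PEK, the fly PERK, phosphorylates the translation factor eIF2alpha, and translation of crc, the fly ATF4, rises when eIF2alpha is phosphorylated. Atf6 belongs to a family of membrane-bound factors that, in mammals, are cut free in the Golgi under stress. Vertebrate relatives of Usf bind the E-box CACGTG, and mammalian XBP1 and ATF6 bind elements with a related ACGT core.

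Usf-GFP summits of the IDR set lay upstream of the transcription start sites of Ire1, Sec61alpha, crc and Gp93. The sequence there is free of any annotated untranslated region, and is shown because it is what the immunoprecipitation recovered most strongly at each gene. Hsc70-3 and Pdi are shown for contrast, with their strongest summit of the relaxed pooled list. Each line spans 100 bp to both sides of the summit, except that the Hsc70-3 line was cut to 166 bp where the 5′ UTR begins. The letters were read from the Release 6 genome (dm6 coordinates), 5′ to 3′ on the gene's strand, and capitals mark CCACG in the Ire1 line and, in the Hsc70-3 line, both the E-box CACGTG and the motif TGACGT.
Ire1 (chr3R:19861357-19861557, minus strand): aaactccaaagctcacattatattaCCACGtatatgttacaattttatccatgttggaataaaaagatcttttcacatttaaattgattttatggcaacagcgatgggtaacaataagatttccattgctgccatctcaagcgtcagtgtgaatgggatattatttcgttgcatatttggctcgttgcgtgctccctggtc
Sec61alpha (chr2L:6480619-6480819, minus strand): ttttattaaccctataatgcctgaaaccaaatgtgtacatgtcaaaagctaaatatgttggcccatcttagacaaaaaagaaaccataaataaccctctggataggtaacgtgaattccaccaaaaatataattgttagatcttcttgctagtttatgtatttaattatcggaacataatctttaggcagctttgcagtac
crc (chr2L:21310149-21310349, plus strand): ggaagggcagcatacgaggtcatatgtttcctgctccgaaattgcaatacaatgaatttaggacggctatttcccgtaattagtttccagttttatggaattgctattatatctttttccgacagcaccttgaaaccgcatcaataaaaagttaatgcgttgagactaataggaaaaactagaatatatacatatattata
Gp93 (chr3R:27948444-27948644, plus strand): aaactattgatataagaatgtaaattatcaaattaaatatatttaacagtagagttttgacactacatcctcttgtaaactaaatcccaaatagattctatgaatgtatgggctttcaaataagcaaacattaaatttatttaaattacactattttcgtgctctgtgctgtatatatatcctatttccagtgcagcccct
Hsc70-3 (chrX:11806354-11806519, minus strand): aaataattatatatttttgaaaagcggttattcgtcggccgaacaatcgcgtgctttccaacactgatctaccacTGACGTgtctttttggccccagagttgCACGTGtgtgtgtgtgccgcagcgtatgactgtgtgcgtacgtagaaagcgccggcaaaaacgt
Pdi (chr3L:15141251-15141451, minus strand): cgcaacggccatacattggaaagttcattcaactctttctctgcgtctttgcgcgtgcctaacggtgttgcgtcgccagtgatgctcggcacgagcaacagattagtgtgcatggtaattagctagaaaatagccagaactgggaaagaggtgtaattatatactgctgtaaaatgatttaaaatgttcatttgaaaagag

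The strongest Usf-GFP binding at these genes was at promoters of Xbp1, Sec61alpha and Ire1, while PEK, Atf6, Hsc70-3 and Pdi had no IDR summit within 2 kb of a transcription start site (TSS). In all, 5 of the 9 genes had an IDR summit within that distance, where 18.9% of protein-coding genes did (2646 of 13968). Ranked by replicate 4 alone, 3 of the 9 had a summit among the strongest 2767, since crc and Gp93 ranked lower there. By replicate 3 alone 5 had one. The shares of protein-coding genes were 19.1% by replicate 4 and 18.8% by replicate 3. The genes were listed with earlier results of these data known, so this count is a description. Together they had 6 IDR summits, all upstream of the nearest TSS, at distances from 5 to 617 bp. Of the 6, 5 lay in intergenic sequence and 1 in a non-coding exon. In the relaxed pooled list all 9 genes had a summit within 2 kb, 22 summits in total, but so did 61.8% of protein-coding genes. Replicate 3 had summits at all 9 genes (71.0% of protein-coding genes) and replicate 4 at 8 of them (70.7%), with PEK the exception. The relaxed lists include background, and a weak summit in them is listed here as a position and a signal only.

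The signal is the authors' own value for each peak, its scaling is not stated, and it is used to rank peaks within a list. The IDR set on dm6 held 2767 peaks, the pooled list 21315, the replicate 3 list 28459 and the replicate 4 list 29246. The IDR peaks were the 2767 strongest of the pooled list and ended at a signal of 71.3. The IDR peaks carry their pooled signals, so 1 value is given for both. Read depth is unknown, and no control library was analysed here.

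**Figure D1:**
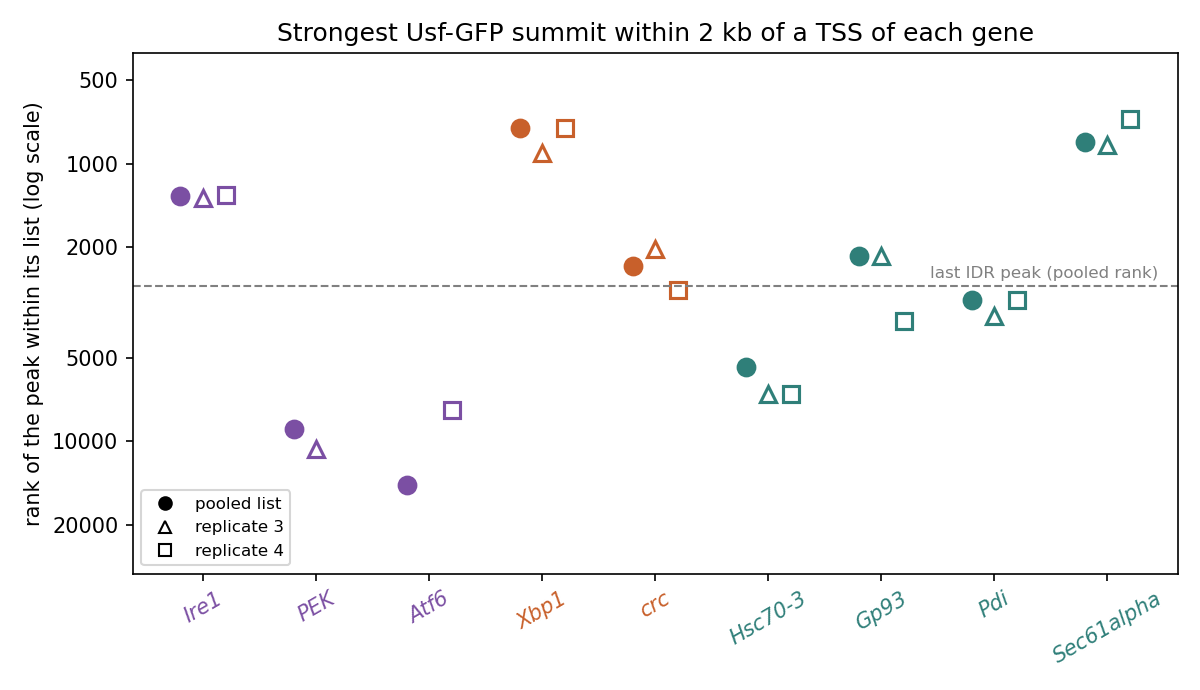
Rank (log scale, strongest at the top) of the strongest pooled summit within 2 kb of a TSS of each gene, with the rank of the summit within 100 bp of it in each replicate. Colours mark sensors (purple), transcription factors (orange) and folding and translocation genes (green), and the dashed line is the last of the 2767 IDR peaks. Xbp1, Sec61alpha and Ire1 ranked at 1336 or better in all 3 lists, while PEK had no match in replicate 4 and Atf6 none in replicate 3.

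Among the sensors, Ire1 alone had an IDR summit. The gene lies on 3R at 19853908–19861291 on the minus strand, and its peak spanned 19861259–19861654 with the summit at 19861457, in intergenic sequence 166 bp upstream of its TSS. The signal was 123.6 in the pooled list (rank 1313), 67.0 in replicate 3 (rank 1336) and 58.2 in replicate 4 (rank 1296). Both replicates thus placed this peak almost equally high, and their summits lay 15 and 0 bp from the pooled summit. Inside Ire1, weaker pooled summits lay 542 bp downstream of the TSS in a coding exon (signal 31.7, rank 9195) and 1765 bp downstream in an intron (27.8, rank 12474). The first was within 100 bp of a summit in both replicates, and the second was so in replicate 3 only. Replicate 4 also listed summits 1941 bp downstream in an intron (19.2) and 1686 bp upstream in a coding exon of CG4572 (13.9).

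PEK (3R, 5458563–5464753, minus strand) had relaxed summits only, and none in replicate 4. The stronger of its 2 pooled summits lay in intergenic sequence 839 bp upstream of the first of its 3 TSSs, with a pooled signal of 32.0 (rank 9016) and 19.3 in replicate 3 (rank 10631). The weaker, 1114 bp upstream, was in a coding exon of the ribosomal protein gene RpL35A, with 23.4 in the pooled list and 13.7 in replicate 3. Replicate 3 listed another summit, 1902 bp upstream in an intron of RpL35A, with 16.0 (rank 17161). Atf6 (2R, 5144733–5154756, plus strand) had the lowest pooled maximum of the 9 genes. Its summit at 5144574, 159 bp upstream of the first TSS, had a pooled signal of 26.2 (rank 14347) and 19.6 in replicate 4 (rank 7724), with no match in replicate 3. A second Atf6 summit, in an intron 1114 bp upstream of the later TSS, had a signal of 23.2 and no match within 100 bp in either replicate, the nearest being just beyond that distance in replicate 3.

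Both transcription factor genes had IDR summits. Xbp1 (2R, 21143545–21145750, plus strand) had the highest pooled signal of the 9 genes, while Sec61alpha was higher in both replicates. It was the only 1 of the 9 with 2 IDR summits within 2 kb, which lay 202 bp apart in intergenic sequence. The stronger peak spanned 21143140–21143535, with its summit 207 bp upstream of the TSS and signals of 171.5 in the pooled list (rank 746), 83.8 in replicate 3 (rank 919) and 80.9 in replicate 4 (rank 742). Its other peak spanned 21143342–21143737, with its summit 5 bp upstream of the TSS and a pooled signal of 92.8 (rank 1954). In replicate 3 this second summit had a signal of 72.7 (rank 1163), close to that of the first. Replicate 4 had no summit within 100 bp of it, and its nearest, 180 bp away, is the match of the first summit. A relaxed summit 1943 bp upstream, in the 5′ UTR of Magi, had a signal of 31.1 and was matched in replicate 3 only (15.8). Replicate 4 had its own summit in that UTR, 1797 bp upstream (20.1), and replicate 3 another in a coding exon of CG9406, 812 bp upstream (16.2).

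The peak assigned to crc (2L, 21310866–21319527, plus strand) had the lowest pooled signal of the 5 genes with an IDR summit, though not in either replicate, and lay nearer to another gene. It spanned 21310051–21310446 with the summit at 21310249, 617 bp upstream of the first crc TSS and 199 bp from a TSS of Mondo, a glucose-sensing transcription factor transcribed the other way. The signal was 81.3 in the pooled list (rank 2337), 49.8 in replicate 3 (rank 2027) and 33.8 in replicate 4 (rank 2849), where the summit lay 61 bp from the pooled one. At the second crc TSS, which coincides with a TSS of CG46314, a pooled summit 391 bp upstream had a signal of 28.1 and no match within 100 bp in either replicate. Replicate 4 alone listed a summit 13 bp upstream of the first TSS, with a signal of 14.1 (rank 17661), and 1 in an intron 229 bp upstream of the second TSS, with 15.5. Replicate 3 alone listed a summit in a crc coding exon 1140 bp downstream, with 19.0. The pooled summit in the Mondo 5′ UTR, 1508 bp upstream of crc, had a signal of 31.3 and was matched in replicate 3 (19.1).

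In the folding and translocation class, the Sec61alpha promoter carried the strongest peak. Sec61alpha encodes the channel subunit through which new proteins enter the ER, and lies on 2L at 6477182–6480575 on the minus strand. Its peak spanned only 121 bp, 6480673–6480793, where the median IDR peak spanned 396 bp. The summit lay 144 bp upstream of the TSS, in an exon of lncRNA:CR45463. Signals were 162.1 in the pooled list (rank 837), 87.0 in replicate 3 (rank 860) and 84.8 in replicate 4 (rank 693). In replicate 4 the summit was 99 bp from the pooled one, just inside the 100 bp used to match summits, and 243 bp from the TSS. At 6480818, this replicate 4 summit lay outside the pooled peak. It was nearer to the TSS of the neighbour Daxx, at 6480929, than to that of Sec61alpha. Intronic summits 616 and 1190 bp downstream had pooled signals of 27.9 and 25.3 and were matched in replicate 4 only. For the first of these, the replicate 4 signal of 26.9 ranked 3994, above the pooled rank of 12351. Summits inside Daxx were listed by replicate 3 alone 900 bp upstream (18.3) and by replicate 4 alone 1719 bp upstream (14.3).

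Gp93, the fly GRP94 chaperone gene (3R, 27948711–27952151, plus strand), had 1 summit in every list. The peak spanned 27948346–27948741 and its summit lay 167 bp upstream of the only TSS. The signal was 86.2 in the pooled list (rank 2159), 47.6 in replicate 3 (rank 2144) and 28.4 in replicate 4 (rank 3675). Summit positions in the replicates were within 1 bp of the pooled summit, while the rank was lower in replicate 4.

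Hsc70-3 and Pdi had summits below the IDR set that recurred in both replicates. Hsc70-3 encodes BiP, the main ER chaperone (X, 11801696–11807117, minus strand, 4 TSSs). Its strongest summit, at 11806419, lay in an intron and 66 bp upstream of an internal TSS, with signals of 42.2 in the pooled list (rank 5393), 23.1 in replicate 3 (rank 6746) and 20.7 in replicate 4 (rank 6760). In replicate 4 the summit lay 77 bp away, 11 bp downstream of that TSS in the 5′ UTR. A summit 552 bp upstream of the first TSS had a signal of 31.6 and was matched in replicate 3 only. Pdi, which encodes protein disulfide isomerase (3L, 15137738–15142840, minus strand), came closest to the IDR set among the 4 genes without an IDR summit. Its summit at 15141351, in an intron 1241 bp downstream of a TSS, had signals of 65.0 in the pooled list (rank 3112), 33.2 in replicate 3 (rank 3528) and 31.7 in replicate 4 (rank 3089). At the Pdi promoter itself, 60 bp upstream of a TSS and in the 5′ UTR, the pooled signal was 23.7 (rank 18307), with 19.9 in replicate 4 and no match in replicate 3. A pooled summit 1202 bp upstream, in the 5′ UTR of CG32147, had 28.7 and was matched in replicate 3 only (18.6). Replicate 3 alone listed a summit 1500 bp upstream (14.6), and replicate 4 alone an intronic one 1473 bp downstream (23.1).

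**Figure D2:**
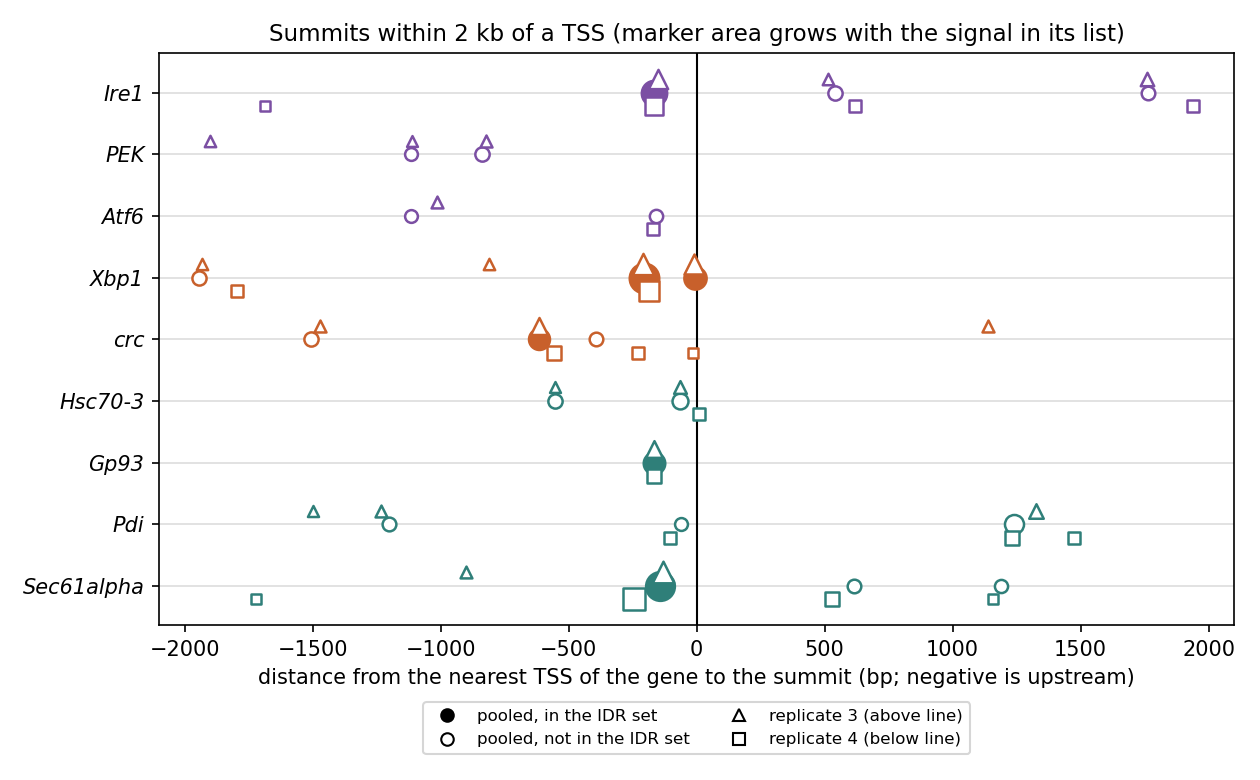
Position of each summit relative to the nearest TSS of its gene (x axis, bp, negative is upstream) for the 9 genes, with circles for the pooled list, triangles for replicate 3 and squares for replicate 4, and filled circles for IDR summits. Marker area grows with the signal within its list. The 6 IDR summits lie between 617 and 5 bp upstream, and the weaker summits spread over both sides.

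By class, 1 of 3 sensors, 2 of 2 transcription factors and 2 of 4 folding and translocation genes had an IDR summit within 2 kb. The share of all protein-coding genes was 18.9%. In replicate 4 the summits of crc (rank 2849) and Gp93 (rank 3675) fell outside the strongest 2767. The crc summit also lay nearer to Mondo than to crc. The highest pooled signal was 123.6 among sensors, 171.5 among transcription factors and 162.1 among folding and translocation genes. Within each class the genes spread widely, from 26.2 to 123.6 over the sensors and from 42.2 to 162.1 over the folding and translocation genes. The classes overlapped, and with so few genes in each and 1 condition, no test between them was made.

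The order of the 9 genes by their strongest pooled signal was Xbp1, Sec61alpha, Ire1, Gp93, crc, Pdi, Hsc70-3, PEK and Atf6. Neighbours in that order were not all separated by the replicates. Sec61alpha stood above Xbp1 in both, with 87.0 against 83.8 in replicate 3 and 84.8 against 80.9 in replicate 4. The peak of crc stood above that of Gp93 in both, and in replicate 4 Pdi (31.7) also stood above Gp93 (28.4). Xbp1, Sec61alpha and Ire1 stayed the first 3 in every list, and Hsc70-3 stayed seventh. Of 8628 protein-coding genes with a pooled summit within 2 kb, 89.2% had a lower strongest signal than Xbp1, 52.4% a lower one than Hsc70-3 and 17.7% a lower one than Atf6. Among the 2646 genes with an IDR summit the median strongest signal was 134.2, so that Xbp1 and Sec61alpha lay above it and Ire1, Gp93 and crc below.

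Every gene with an IDR summit shared its strongest one with another protein-coding gene that had a TSS within 1 kb, 5 of 5, as did 62.8% of all protein-coding genes with an IDR summit (1661 of 2646). Ire1 faces Mrm2, a mitochondrial rRNA methyltransferase gene, with 319 bp between their TSSs, and the summit lay 153 bp from the Mrm2 TSS and 166 bp from that of Ire1. Sec61alpha faces Daxx, whose human relative is a histone chaperone, with 354 bp between TSSs and the summit 210 bp from the Daxx TSS. Gp93 faces mfrn, the mitochondrial iron carrier gene mitoferrin, at 690 bp, and the summit was closer to Gp93. CG9406, the partner of Xbp1, is transcribed in the same direction and its TSS lay 970 bp from the stronger summit. The second Xbp1 summit was within 1 kb of no other gene's TSS. In 4 of the 5 pairs the genes lie on opposite strands, and a peak between such TSSs cannot be assigned to either gene by position.

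The 2 kb limit left some strong summits out. The farthest pooled summits inside it were at 1943 bp from Xbp1 and 1765 bp from Ire1. Just outside lay a summit 2453 bp from PEK (signal 68.2, rank 2921), an IDR summit 2469 bp from Xbp1 in intergenic sequence (94.8, rank 1905) and an IDR summit in an Ire1 intron 2784 bp from its TSS (80.0, rank 2394).

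Of the 22 pooled summits near the 9 genes, 8 were matched within 100 bp in both replicates, 8 in replicate 3 only, 4 in replicate 4 only and 2 in neither. The strongest summit of a gene was matched in both replicates for 7 of the 9 genes, all but PEK and Atf6. The same held for 52.1% of the 8628 protein-coding genes with a pooled summit within 2 kb. These shares cover unlike signals, since 5 of the 7 summits were IDR summits, while 2646 of the 8628 genes had an IDR summit. No share over all pooled summits is given beside the other counts of this paragraph. The 16 pooled summits outside the IDR set had signals from 23.2 to 65.0, and 3 of them, at Hsc70-3, Pdi and Ire1, were matched in both replicates.

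The E-box CACGTG was absent from the windows, 100 bp to both sides, of all 6 IDR summits, and was found at 1 of the 22 pooled summits, that of Hsc70-3 in its intron. There it lay at 11806412–11806417, with its centre 4 bp from the pooled summit. Of all IDR summit windows 2.46% held CACGTG (68 of 2767), as did 3.16% of windows at pooled summits outside the IDR set. TGACGT, which holds the ACGT core, also lay in that Hsc70-3 window, at 11806439–11806444 and at 11806352–11806357. It was present at 4 of the 22 pooled summits, 1 of them in the IDR set. Of pooled windows outside the IDR set 4.24% held it. Besides that Hsc70-3 window, TGACGT was at the upstream Hsc70-3 summit and, with 2 copies, at the crc summit in the Mondo 5′ UTR. The Xbp1 summit at its TSS also held it, with both copies downstream of the TSS in the 5′ UTR. That Xbp1 summit was the only 1 of the 6 IDR summits with TGACGT, which 3.83% of all IDR windows held.

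The other motifs were searched on both strands in the same windows. CCACG was present at 1 of 6 IDR summits, that of Ire1, against 11.1% of all IDR windows. With that Ire1 summit included, it was at 3 of the 22 pooled summits, and 21.7% of windows outside the IDR set held it. The full ER stress response element, CCAAT and CCACG separated by 9 bases, was at none of the 22 pooled summits and in 0.0431% of the windows outside the IDR set. TATCGATA, the DNA replication-related element common in fly promoters, was at 2 pooled summits, near Atf6 and Pdi, against 1.34% outside the IDR set. TGATGNAAT, an element bound by ATF4 in mammals, was at 1, inside Ire1, against 0.965%. ACAGTG was at none of the 6 IDR summits, where 19.2% of all IDR windows held it, and at 2 of the 22 pooled summits, near Pdi and Atf6. In windows from 250 bp before to 50 bp after the first TSS, TGACGT was found at 4 of the 9 genes, Atf6, Xbp1, Hsc70-3 and Pdi, against 6.66% of 13968 promoters. CACGTG was found at 0 of the 9, against 4.23%. CCACG was found at 1 (Ire1) against 23.0%, TATCGATA at 1 (Atf6) against 9.36%, and ACAGTG at 2 (Ire1 and Sec61alpha) against 14.0%. TGATGNAAT was at 0, against 1.23%, and the full ER stress response element at 0, against 0.0215%. CCACG overlaps CACGTG in CCACGTG, and a match or its absence describes only the letters of these windows.

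At the 6 IDR summits, GC content over 50 bp to both sides ran from 27.7% at Gp93 to 42.6% at the Xbp1 summit next to its TSS, with a median of 35.1%, and the median of all IDR summits was 32.7%. At the 16 pooled summits outside the IDR set it ran from 28.7% to 68.3% with a median of 46.5%, and the median of all 18548 such summits was 43.6%. Of these 16, 9 lay above the highest of the 6 IDR summits, at 42.6%, as did the median of all 18548 such summits. The strongest summits of Hsc70-3 and Pdi were both at 52.5%, above 96.5% of all IDR summits. Both lie outside the IDR set, and the upper quartile of the 18548 summits there was 51.5%. The part of base composition in the signal was not tested.

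**Figure D3:**
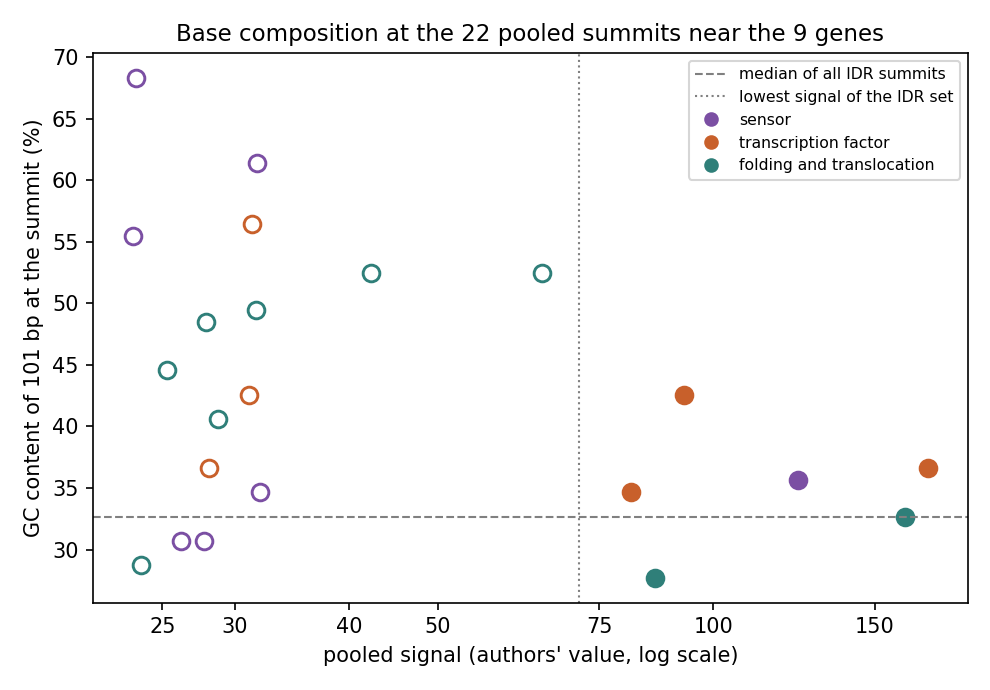
GC content (%) over 50 bp to both sides of each of the 22 pooled summits near the 9 genes against pooled signal (log scale), with filled points for IDR summits and colours for gene class. The 6 IDR summits range from 27.7% to 42.6%, and the 16 others from 28.7% to 68.3%.

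A wider list of 52 genes for ER folding, translocation, degradation, glycosylation and stress signalling, which includes the 9, had an IDR summit within 2 kb at 19 genes (36.5%). Without the 9 it was 14 of 43 (32.6%), beside 18.9% of all protein-coding genes. The counts by role that follow stand beside the same 18.9%, and each role holds few genes. The median strongest IDR signal was 171.5 over these 19 genes, 210.8 over the 14 and 134.2 over all protein-coding genes with an IDR summit. Several of the 14 had far stronger peaks than any of the 9. Of the 14, 10 shared the summit with another protein-coding gene (71.4%), beside 62.8% of all protein-coding genes with an IDR summit. The summit was more than 900 bp from their own TSS for 4 of the 14, and no share over all genes is given for that.

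In the translocation group 5 of 10 genes had an IDR summit. TRAM, a membrane protein of the translocon, had a signal of 584.0 (rank 58) at 80 bp from its TSS, and Trp1, the fly Sec62, had 381.5 (rank 159) at 124 bp. Neither shared its summit with another coding gene. SrpRbeta, a subunit of the signal recognition particle receptor, had 554.8 (rank 64), but its summit was 1052 bp away and near CG32022 and CG6511. SsRbeta, a translocon-associated subunit, had 129.9 at 976 bp, nearer to Pgm1. Sec61beta and Sec61gamma, the partners of Sec61alpha in the channel, had relaxed summits only, with pooled signals of 27.3 and 45.7.

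For degradation of misfolded proteins the count was 4 of 10. Hrd3, a cofactor of the ER ubiquitin ligase, had the strongest peak of the wider list, with a signal of 784.1 (rank 28) at 216 bp, shared with PTPMT1. Herp, also of that ligase complex, had 200.4 (rank 581) at 77 bp, shared with r2d2. Edem1 and Edem2, which act on glycoproteins bound for degradation, had 89.2 and 73.2, shared with mip130 and CG16974 in that order. The ligase gene sip3 itself had no summit within 2 kb in any of the 4 lists.

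Of 9 chaperone genes 3 had an IDR summit. Besides Gp93 these were Cnx99A, a calnexin, with 139.5 (rank 1081) at 66 bp, and P58IPK, a co-chaperone of BiP, with 82.0 (rank 2301), and neither shared its summit with another coding gene. At the P58IPK summit the replicates differed, with 14.3 (rank 22337) in replicate 3, 15 bp from the pooled summit, and 61.6 (rank 1175) in replicate 4, 1 bp from it. A stronger replicate 3 summit near P58IPK, with 25.8, lay 1481 bp from its TSS and is another position. Of the 14 genes, 13 had their IDR summit matched within 100 bp in both replicates. No share over all genes with an IDR summit is given beside this count. The IDR peaks are the strongest of the reads pooled from both replicates, so the count is a description only. Edem1 was the exception, with 66.8 (rank 1343) in replicate 3 and no match in replicate 4, where the nearest summit lay 156 bp away with 16.5 (rank 11874). Grp170 had no summit within 2 kb in any list, and Cnx14D had a weak one in replicate 4 alone.

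In disulfide formation 2 of 5 genes had an IDR summit, ERp60 with 190.5 at 1070 bp, near eEF1alpha1, and prtp with 221.2 at 451 bp, near Amun. Stt3A, a catalytic subunit of N-glycosylation, was the only 1 of 7 glycosylation genes (14.3%), with 410.8 (rank 133) at 387 bp, shared with bves. PPP1R15, which directs the phosphatase of eIF2alpha and so opposes PEK, was the only 1 of 4 translation control genes (25.0%), with 589.7 (rank 56). That summit was 1307 bp from the PPP1R15 TSS and within 1 kb of a TSS of the transcription factor gene Sox14. The role of other stress factors, with 2 genes, had 0 with an IDR summit. There BI-1, a regulator of cell death at the ER, fell 3 ranks beyond the last IDR peak, with a signal of 71.3 (rank 2770). It was named after its value was seen.

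**Figure D4:**
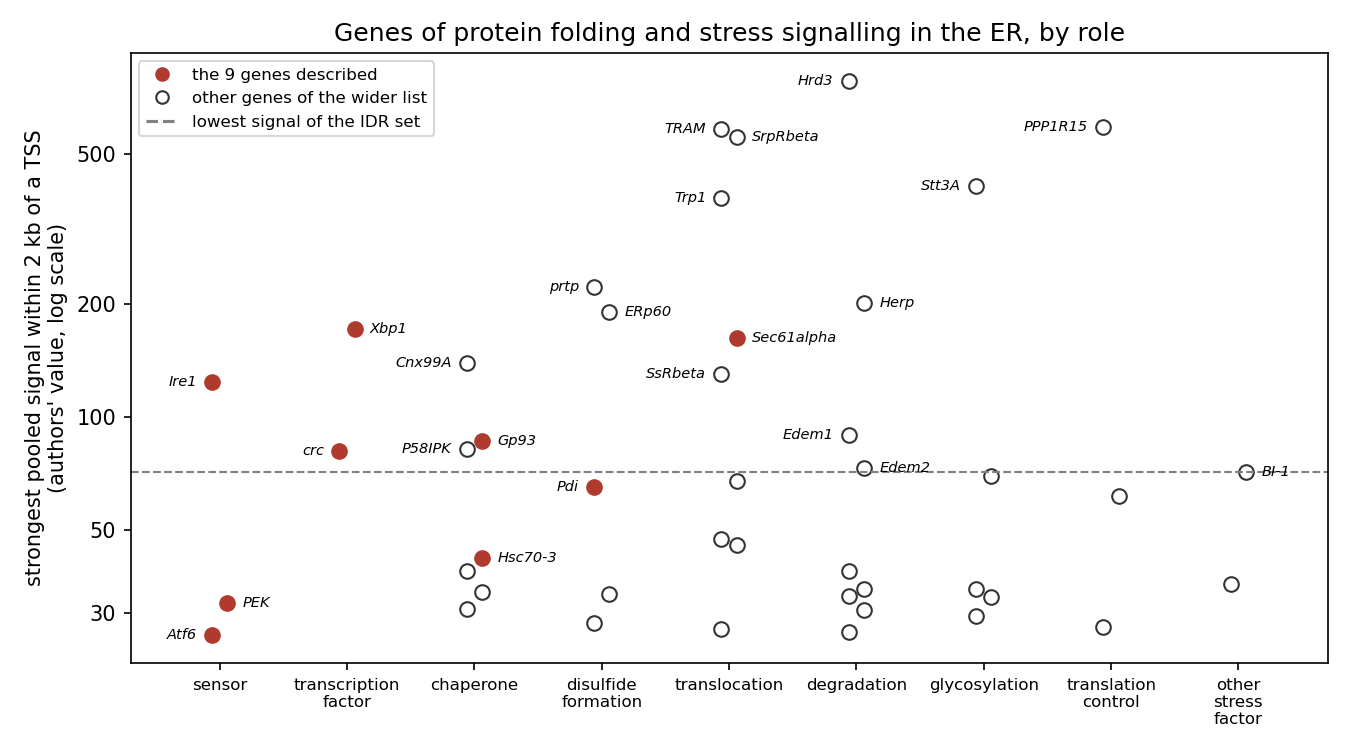
Strongest pooled signal (the authors' value, log scale) within 2 kb of a TSS for each gene of the wider list with a pooled summit, by role, with the 9 genes described in red and other genes in open circles. The dashed line is the lowest signal of the IDR set, 71.3. Hrd3, PPP1R15, TRAM, SrpRbeta, Stt3A and Trp1 stand at 381.5 or higher, while the highest of the 9 genes, Xbp1, has 171.5.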

How the data were processed

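The authors deposited peak lists in narrowPeak layout on dm3 and dm6, and the dm6 lists were used. Per the labels, chromatin was sonicated to 200 to 800 bp. Per the deposited file notes, each relaxed list was called on 1 replicate, or on both pooled, with a further input file, common to all 3, whose content the notes do not describe, and the IDR set came from all 3 relaxed lists. No peak caller or IDR cutoff is named in these sources. The deposited signal of each peak is the authors' value, of unstated scaling.

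Summits (start plus offset, counted from 1) were joined to the Ensembl 115 annotation and Release 6 sequence, and all 81787 peak ends lay within the chromosome lengths. TSSs are the 5′ ends of all transcripts. A summit belonged to a gene within 2 kb of a TSS, partner genes had a TSS within 1 kb of the summit, and summits of different lists matched within 100 bp. Ranks fall with signal. Of 53 symbols in the wider list, 1 repeated a gene under an older name, leaving 52. The members, the lists and the motif ACAGTG were chosen with earlier results of these data known. Named were the 9 genes, their partners at the strongest pooled and IDR summits, and the wider-list genes with an IDR summit, plus examples without one, chosen after their values were seen. There is 1 condition and no control group, so no test was made. The dm3 lists were not used. The summit and motif search, written in Python 3.11.15 with numpy 2.4.6 and pandas 2.3.3, was tested on simulated peaks and sequences. Alternatives were the TSS distance, the IDR signal, peak intervals, the TSSs used and single replicates.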

Additional observations from a re-analysis of the deposited data

How the results depend on the processing

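The count of 5 of the 9 genes with an IDR summit within 2 kb was 4 at 500 bp, where crc left, and 5 at 1 kb, with peak intervals in place of summits, and with the 5′-most TSS alone. With the 1383 stronger IDR peaks it was 3 (Ire1, Xbp1 and Sec61alpha), and the share of protein-coding genes was 11.1%. When each replicate's 2767 strongest peaks replaced the IDR set, the count was 3 without replicate 3 and 5 without replicate 4, with crc and Gp93 left out without replicate 3. Under the other settings the share of protein-coding genes ran from 13.3% at 500 bp to 19.6% with peak intervals. The wider list ran from 14 to 19 genes over all settings, and at 1 kb it was 16. The pooled count of 9 was 8 at 500 bp and 8 without replicate 3, where PEK left each time. The strongest pooled signal changed in 3 of 26 recomputed values, for crc at 500 bp (28.1) and for Pdi at 500 bp and 1 kb (23.7 in each). No paired analysis was possible because there is 1 group. Depth is unknown, so weak summits cannot be given a counting error.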
